A study of Mus musculus with 8 samples.

Results

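The interleukin-6 (IL-6) family of cytokines, their receptors and STAT3 signalling were followed in the mouse brain as 10 genes taken by name, *Il6*, *Il11*, *Lif*, *Osm*, *Il6ra*, *Il6st*, *Osmr*, *Lifr*, *Socs3* and *Stat3*. Every probe on the arrays that carried one of these names was used, which gave 16 probes for 9 of the 10 genes, out of 41174 probes and 18421 named genes. No probe was named *Lif*, so *Lif* was not analysed here. On each array, 60-base probes bind RNA of one pool labeled with the red dye Cy5 and RNA of another pool labeled with the green dye Cy3 at once.

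The RNA came from the ipsilateral hemisphere of male C57BL/6J mice, 8 to 12 weeks old by the labels and of a single age within this range by the methods, 6 h or 24 h after a sham operation or permanent occlusion of the middle cerebral artery (PMCAO). In the sham operation the artery was exposed and the wound closed. All mice received an injection into the cerebral ventricle, either 1 pmol PACAP38 (pituitary adenylate cyclase-activating polypeptide) or saline, so the sham groups also carry the injection. This makes 8 groups, and each group was 1 pool of RNA from 3 mice. PMCAO mice were chosen for the pools by their neurological grade, whereas sham mice were taken at random. The PACAP38 pool and the saline pool of one surgery and time were hybridized together on 2 arrays with the dyes exchanged. Array 1 is the one with PACAP38 in Cy5 and array 2 the one with PACAP38 in Cy3.

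IL-6, IL-11, leukemia inhibitory factor (LIF) and oncostatin M are secreted cytokines that act through receptor complexes containing the shared chain gp130, the product of *Il6st*. Each ligand adds a chain of its own, such as the IL-6 receptor alpha chain (*Il6ra*), the LIF receptor (*Lifr*) or the oncostatin M receptor (*Osmr*). The complex activates JAK kinases, which phosphorylate the transcription factor STAT3, and STAT3 induces *Socs3*, which inhibits the receptor in return. In the injured brain these cytokines are known from glia, endothelium, neurons and invading leukocytes, and STAT3 is known for its part in the reaction of astrocytes.

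The sequences just before the transcription start are shown for 3 members whose signals differed most between the 24 h pools and whose RefSeq promoters (GRCm38.p6) held one of 3 motifs. The motifs, searched on both strands in the 250 bases before the start, were TTCNNNGAA, the form bound by STAT factors, TGANTCA, the form bound by AP-1, and GGGA and TTCC with any 2 bases between them, a form bound by NF-kappaB. TTCNNNGAA and TGANTCA read the same on both strands, and no 2 matches overlapped in the members. Capitals mark the matches, and each sequence is given 5′ to 3′ on the strand of the gene, which is the minus strand for *Socs3* (chr11:117969367-117969616) and *Il11* (chr7:4778142-4778391, the start nearer the 3′ end of 2 listed) and the plus strand for *Il6* (chr5:30012864-30013113).

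Socs3: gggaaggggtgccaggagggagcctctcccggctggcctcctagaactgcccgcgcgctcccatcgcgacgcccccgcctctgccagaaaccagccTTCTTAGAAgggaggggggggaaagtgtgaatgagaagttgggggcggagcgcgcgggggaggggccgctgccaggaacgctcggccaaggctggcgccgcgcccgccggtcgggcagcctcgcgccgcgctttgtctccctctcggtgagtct

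Il6: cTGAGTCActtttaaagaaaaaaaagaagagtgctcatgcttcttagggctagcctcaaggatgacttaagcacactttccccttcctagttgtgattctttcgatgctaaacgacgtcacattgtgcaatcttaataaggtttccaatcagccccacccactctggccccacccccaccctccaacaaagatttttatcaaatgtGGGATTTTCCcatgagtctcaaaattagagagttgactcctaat

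Il11: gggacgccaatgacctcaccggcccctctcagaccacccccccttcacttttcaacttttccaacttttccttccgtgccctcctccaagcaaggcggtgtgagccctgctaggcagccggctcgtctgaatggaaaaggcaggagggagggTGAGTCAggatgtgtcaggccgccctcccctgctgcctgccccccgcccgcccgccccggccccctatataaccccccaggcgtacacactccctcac

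*Socs3* was the 1 member with TTCNNNGAA, as TTCTTAGAA from base 154 to base 146 before the start, among 11 promoters of 9 members, and 7.02% of all 32851 promoters held this motif. TGANTCA was found in 6.75% of all promoters and in 3 of the 11, those of *Il6* (bases 249 to 243), *Il11* (bases 98 to 92) and *Lif*. The NF-kappaB form was found in 1.21% of all promoters and among the members in *Il6* alone, from base 44 to base 35. The last 2 motifs were chosen after the sequences had been seen. A match describes the letters of this window and does not show binding.

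One array has to be set apart before the results. In the 6 h sham comparison, the software marked 10.7% of the spots of array 2 as outliers, against 0.323% to 3.09% on the other 7 arrays. Between the 2 arrays of the sham 6 h pools, 47.0% (saline) and 51.1% (PACAP38) of the probes well above background on both differed over 2-fold in scaled signal, and in the other 6 pools 0.342% to 2.17% did. *Il6st* is an example, with 2154 and 2338 on array 1 and 7006 and 6765 on array 2 for saline and PACAP38. The ratio of PACAP38 over saline is formed within an array, but PMCAO over sham at 6 h sets this array against another one. The differences of PMCAO over sham at 6 h are therefore given from both arrays and from array 1 alone. By the file headers each time had its own slide, so time and slide cannot be told apart.

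At 24 h the ligands *Il6* and *Il11*, the receptor *Osmr* and the inhibitor *Socs3* rose with PMCAO, while the shared receptor *Il6st* differed by 1.05-fold and did not pass the test. The levels below are scaled signals, the background-subtracted and dye-normalized signal of a channel divided by the 75th percentile of that channel and put on 1 common scale, as the mean of both arrays. They compare pools for 1 probe and not 1 probe with another. In a whole hemisphere, more cells of a type and more RNA per cell cannot be told apart.

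*Il11*, a cytokine known from stromal tissue and astrocytes, had a scaled signal at 24 h of 111 and 58.55 in the saline and PACAP38 sham pools, and of 2631 and 490.2 in the PMCAO pools. Both PMCAO pools lay above both sham pools. PMCAO was 14.1-fold over sham (log2 difference 3.81 ± 0.69 SE, 4 pools, limma, adjusted p = 0.0472). *Il6*, the founding cytokine of the family, was not well above background on any array of the sham pools at 24 h and was above it on all arrays of the PMCAO pools, where its scaled signal was 439.8 with saline and 90.9 with PACAP38. Its rise can be given only as a lower limit, at least 3.05-fold over both injections, at least 5.76-fold with saline and at least 1.62-fold with PACAP38. The limma test (adjusted p = 0.0338) used the scaled signals with the sham values below background, so it does not test this limit. *Osm*, encoding oncostatin M from leukocytes and microglia, was also not above background in the sham pools at 24 h. Its brighter probe read 48.6 in the PMCAO saline pool and 14.5 in the PMCAO PACAP38 pool, at least 1.26-fold over sham, and did not pass the test (adjusted p = 0.181). Its other probe was not well above background in any pool.

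Among the receptor chains, *Osmr* read 567.5 and 588 in the sham pools at 24 h, and 2562 and 1908 in the PMCAO pools. The groups did not overlap, and PMCAO was 3.83-fold over sham (log2 1.94 ± 0.24, adjusted p = 0.0207). The second *Osmr* probe was dim and below background in sham, at least 1.35-fold higher with PMCAO. Its limma test on the scaled signals (adjusted p = 0.0391) likewise does not test this limit. *Il6ra* was at 25.9 and 28.5 in sham and 53.2 and 41.5 with PMCAO by its brighter probe, a 1.73-fold difference that missed the threshold (adjusted p = 0.068). The 4 *Lifr* probes differed by log2 0.34 to 0.57 in the same direction, with adjusted p from 0.141 to 0.255. *Il6st* read 2139 in both sham pools, 2445 in the PMCAO saline pool and 2047 in the PMCAO PACAP38 pool. The sham level lay between the levels of the PMCAO pools (log2 0.06 ± 0.13, adjusted p = 0.847).

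*Socs3*, the feedback inhibitor, read 940 and 835 in the sham pools and 7981 and 3781 in the PMCAO pools at 24 h, a 6.20-fold rise (log2 2.63 ± 0.35, adjusted p = 0.024). *Stat3* read 2303 and 2405 in sham and 4566 and 3187 with PMCAO by its brighter probe, and its 1.62-fold difference did not pass the test (adjusted p = 0.119). In all, 5 of the 16 member probes were higher and 0 lower with PMCAO at 24 h. The 5 include *Il6* and the second *Osmr* probe, whose calls rest on sham values below background. Over all 36121 probes tested, 2.43% were higher and 1.21% lower. The median log2 difference was 0.74 for the member probes and 0.02 for all probes.

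Both pools of a group shared their 2 arrays, so that the spread between pools leaves out the error between arrays. With the array as a random block, none of the 16 probes passed at 24 h, the adjusted p being 0.104 for *Socs3*, 0.202 for *Osmr*, 0.206 for *Il6* and 0.283 for *Il11*, and 55 of all probes were called. With the 6 h values from array 1 alone none passed either, with adjusted p of 0.0996, 0.083, 0.155 and 0.177 in the same order of genes. Leaving out the PMCAO saline pool of 24 h, either sham pool of 24 h or either PMCAO pool of 6 h gave 0 member probes higher at 24 h, leaving out either sham pool of 6 h gave 3, and a fit then rests on fewer residual degrees of freedom.

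**Figure D1:**
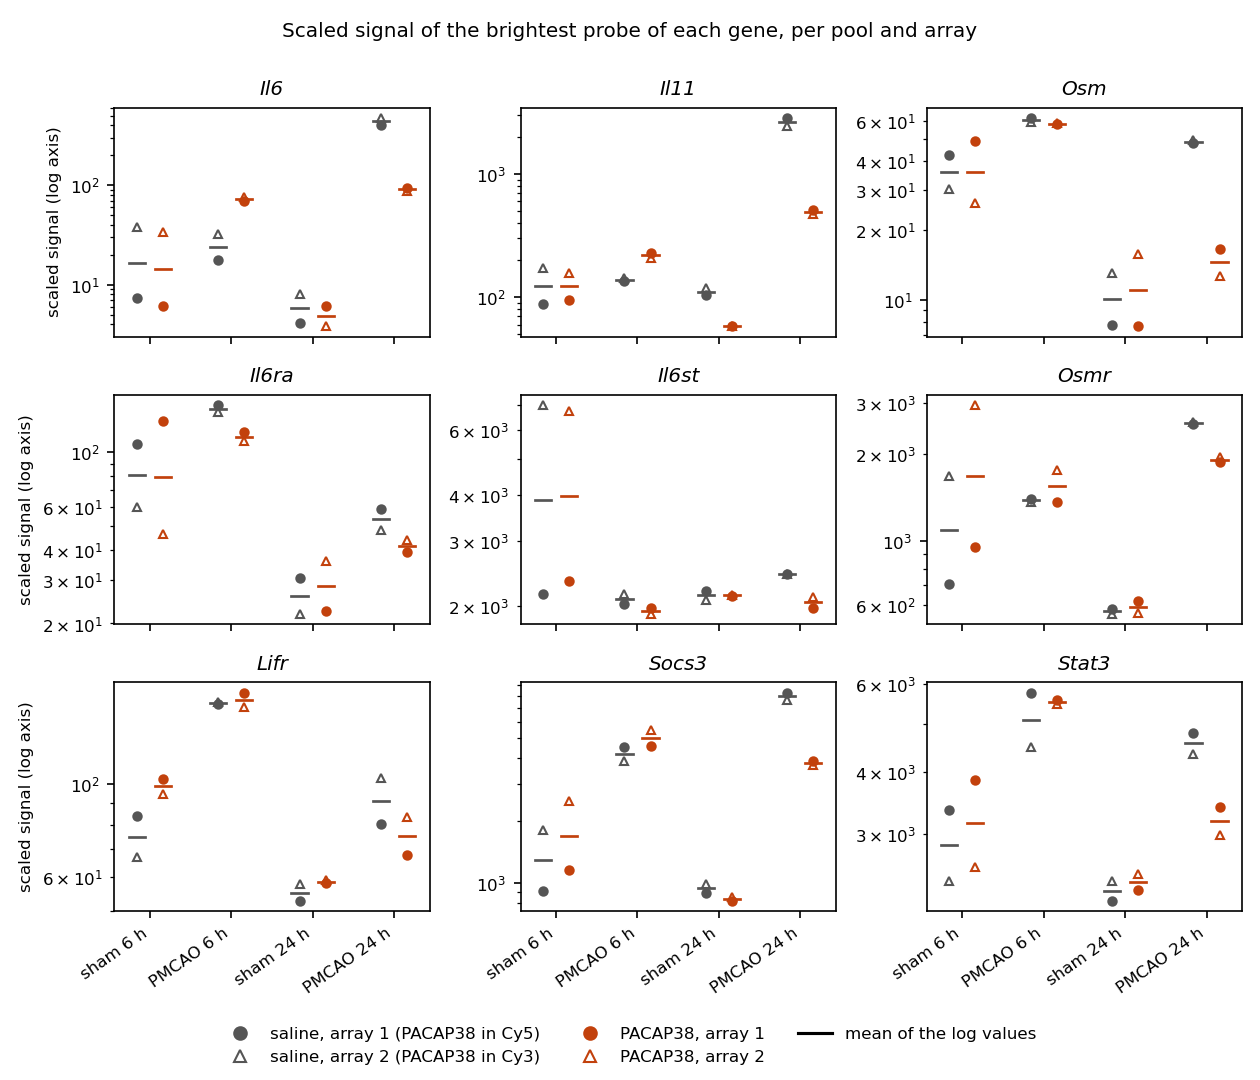
Scaled signal (arbitrary units, log axis) of the brightest probe of each of 9 genes in the 8 pools, with array 1 as filled circles, array 2 as open triangles and the mean of the log values as a line. At 24 h both PMCAO pools lay above both sham pools in the mean of both arrays for every gene but Il6st. Of these genes, Il6 and Osm were below background in sham, and Osm, Il6ra, Lifr and Stat3 did not pass the test. On array 2, Osm read 12.7 in the PMCAO PACAP38 pool and 15.7 in the sham PACAP38 pool. The share of all probes with such a separation was not counted. In sham at 6 h the 2 arrays of one pool lay apart, as for Il6st (2154 and 7006 with saline).

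At 6 h, *Socs3* stood at 1289 and 1692 in the sham pools and at 4199 and 5036 in the PMCAO pools. Both PMCAO pools were higher, and PMCAO was 3.11-fold over sham (log2 1.64 ± 0.35, adjusted p = 0.0131). From array 1 alone the log2 difference was 2.15 (adjusted p = 0.078). *Stat3* read 2847 and 3155 in sham and 5086 and 5526 with PMCAO, 1.77-fold (adjusted p = 0.0174), and from array 1 alone the log2 difference was 0.66 (adjusted p = 0.184). In this fit 7 member probes were higher, those of *Socs3*, both of *Stat3*, 3 of *Lifr* and 1 of *Il6ra*, and 1 was lower, that of *Il6st*. The called *Il6ra* probe differed by log2 0.73 (0.18 from array 1 alone) and the called *Lifr* probes by 0.44 to 0.87 (0.40 to 0.78 from array 1 alone). The second *Stat3* probe was not well above background on any array of 6 h. However, 17.6% of all probes were higher and 27.5% lower at 6 h (6346 and 9951, but 13323 and 7722 when marked spots were kept and 4748 and 12441 with median scaling), while from array 1 alone 0 member probes and 281 of 40200 probes were called. With the array as a random block 0 member probes and 60 of all probes passed, and 0 member probes were higher without the sham saline pool of 6 h, 1 without the PMCAO saline pool and 2 without the PMCAO PACAP38 pool of that time.

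The lower *Il6st* signal with PMCAO at 6 h (log2 -0.96 ± 0.13, adjusted p = 0.00262) was -0.16 from array 1 alone (adjusted p = 0.609). The brighter *Osmr* probe changed sign between the arrays, with 0.99 and 0.53 on array 1 and -0.29 and -0.74 on array 2, for saline and PACAP38, and its mean difference at 6 h was 0.12, or -0.043 with median scaling and 0.76 from array 1 alone. *Il11* differed by log2 0.50 ± 0.69 at 6 h (adjusted p = 0.596), or 0.93 from array 1 alone (adjusted p = 0.544), with 123 and 122 in sham and 139 and 218.5 with PMCAO. *Il6* was above background on 1 of 4 sham channels and 3 of 4 PMCAO channels at 6 h and did not pass the test (log2 1.44, adjusted p = 0.203), nor from array 1 alone (2.39, adjusted p = 0.238).

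The difference between the effects of PMCAO at 24 h and at 6 h was tested as an interaction. It passed for the probes of *Osmr* (log2 1.82 ± 0.34, adjusted p = 0.0156) and *Il6st* (1.03 ± 0.18, adjusted p = 0.0129), 2 of 16 member probes, where 28.5% of all probes passed. From array 1 of 6 h alone these were 1.18 (adjusted p = 0.265) and 0.23 (adjusted p = 0.725). *Il6* and *Il11* did not pass, with adjusted p of 0.056 and 0.0515.

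**Figure D2:**
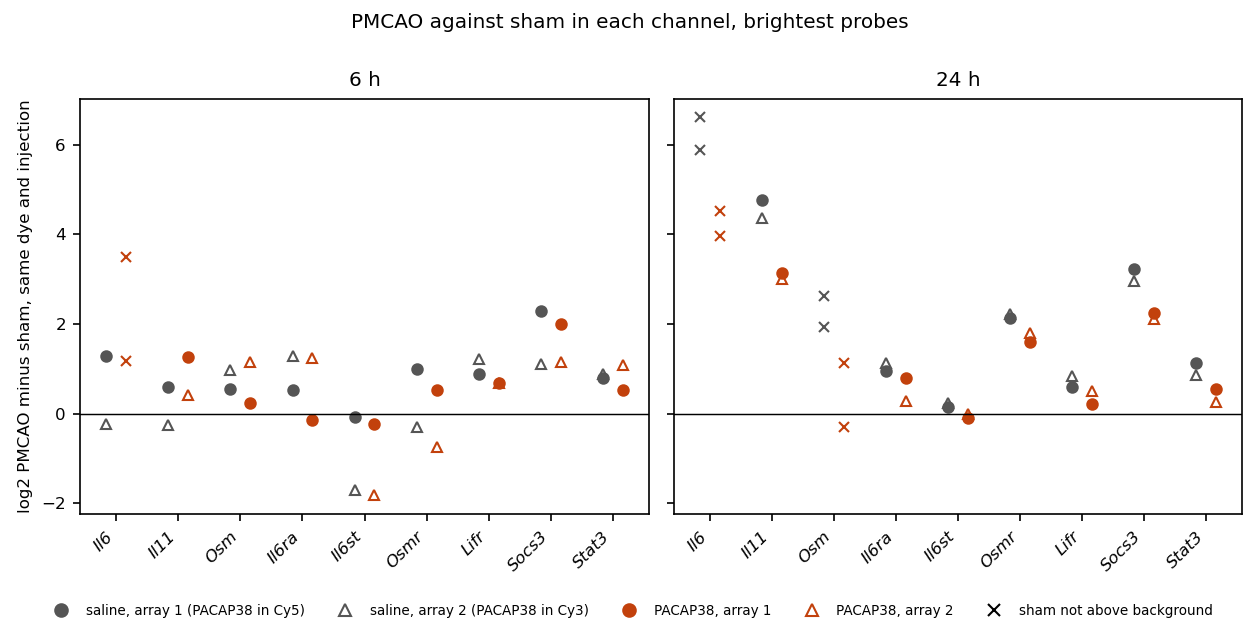
Log2 difference of PMCAO minus sham for the same dye and injection, at 6 h and at 24 h, for the brightest probe of 9 genes, with crosses where the sham pool was not above background on either array, so that the height is no measured difference. At 24 h Il11, Osmr, Socs3, Il6ra, Lifr and Stat3 were positive on both arrays with either injection, of which Il6ra, Lifr and Stat3 did not pass the test. At 6 h the arrays disagreed in sign for Osmr with either injection, for Il6 and Il11 with saline and for Il6ra with PACAP38.

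PACAP38 over saline was read within each array. Each comparison is 1 pair of pools, so no test was possible within it, and upregulated means a ratio above 1.5-fold, downregulated one below 0.75-fold, in the mean of both arrays. In PMCAO at 24 h, 0 member probes were upregulated and 9 of 16 downregulated, beside 2.99% and 8.18% of all probes. Among the 9, the dim second *Stat3* probe read -0.93 and 0.04 on the 2 arrays. The dimmest *Lifr* probe was just inside the threshold (0.737-fold), and the second *Osm* probe was not well above background in any pool. After normexp and loess 6 probes were downregulated, and counted by the brightest probe 6 genes were. Of the 16, 12 were lower with PACAP38 on both arrays and 0 higher on both, but the share of all probes lower on both arrays was not counted. The median log2 ratio of the member probes was -0.44. The median over all probes was 0.

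The ligands differed most. *Il6* was lower on both arrays with a log2 ratio of -2.12 and -2.45 (0.205-fold), and *Il11* with -2.49 and -2.38 (0.185-fold). *Il6* was spotted 10 times on each array, and its log2 ratio ran from -2.21 to -2.03 over the spots of array 1 and from -2.61 to -2.31 over those of array 2. *Osm* read -1.53 and -1.97 by its brighter probe (0.298-fold), which was above background on both saline channels and 1 PACAP38 channel, and its ratio was -0.61 after normexp and loess. Of the receptors, *Osmr* read -0.45 and -0.42 (0.740-fold) and *Il6st* -0.32 and -0.22 (0.832-fold). The dim second *Osmr* probe read -0.04 and 0.03. *Il6ra* by its brighter probe was at -0.59 and -0.14, and the brightest *Lifr* probe at -0.26 and -0.31. *Socs3* fell below the threshold with -1.11 and -1.06 (0.471-fold). *Stat3*, also spotted 10 times, read -0.51 and -0.55 (0.694-fold), with single spots between -0.54 and -0.49 on array 1 and between -0.58 and -0.53 on array 2. *Osmr* lies just inside the 0.75-fold threshold and *Il6ra* (0.776-fold) just outside.

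In PMCAO at 6 h, 2 member probes were upregulated and 0 downregulated, beside 5.41% and 6.90% of all probes. They were *Il6*, with 1.96 and 1.24 on the 2 arrays (3.04-fold), and *Il11*, with 0.76 and 0.54 (1.57-fold). *Il6* was dim here, with 24.1 with saline and 73.3 with PACAP38, and saline was above background on 1 of 2 arrays. After normexp and loess the log2 ratio of *Il6* was 0.17 and that of *Il11* 0.24, and neither passed 1.5-fold. *Socs3* read 0.02 and 0.50, *Stat3* -0.06 and 0.29 and *Osmr* -0.04 and 0.36.

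In sham at 6 h, 2 probes were upregulated, both of *Osmr*, and 1 downregulated, the dim *Osm* probe, beside 3.98% and 7.48% of all probes. The brighter *Osmr* probe read 0.42 and 0.82 (1.54-fold), under 1.5-fold on array 1, and 0.53 after normexp and loess. The dim second *Osmr* probe was above background on 1 PACAP38 channel and 0 saline channels, and read 0.085 after normexp and loess. *Socs3* read 0.32 and 0.46 (1.31-fold). In sham at 24 h, 0 probes were upregulated and 1 downregulated, beside 1.75% and 3.87% of all probes. This was *Il11*, with -0.85 and -1.01 (0.523-fold). *Stat3*, *Socs3*, *Osmr* and *Il6st* lay between -0.18 and 0.05 in the mean there, and *Il6* was below background in both pools. The dye swap bears on all of these, since the ratios of the 2 arrays correlated over all probes at -0.148 in sham and -0.14 in PMCAO at 6 h, and at -0.417 and 0.053 at 24 h (0.42 in PMCAO at 24 h over the 27776 probes above background). Over the 4 pairs of pools together, PACAP38 passed the test for 0 member probes and 0 of all 36121 (limma, 1511 at an unadjusted p under 0.05). This term is a mean over both surgeries and both times, so it does not measure an effect at 1 time or in 1 surgery. Ratios of opposite sign, as those of *Il6* and *Il11* in PMCAO at 6 h and 24 h, offset each other in it.

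**Figure D3:**
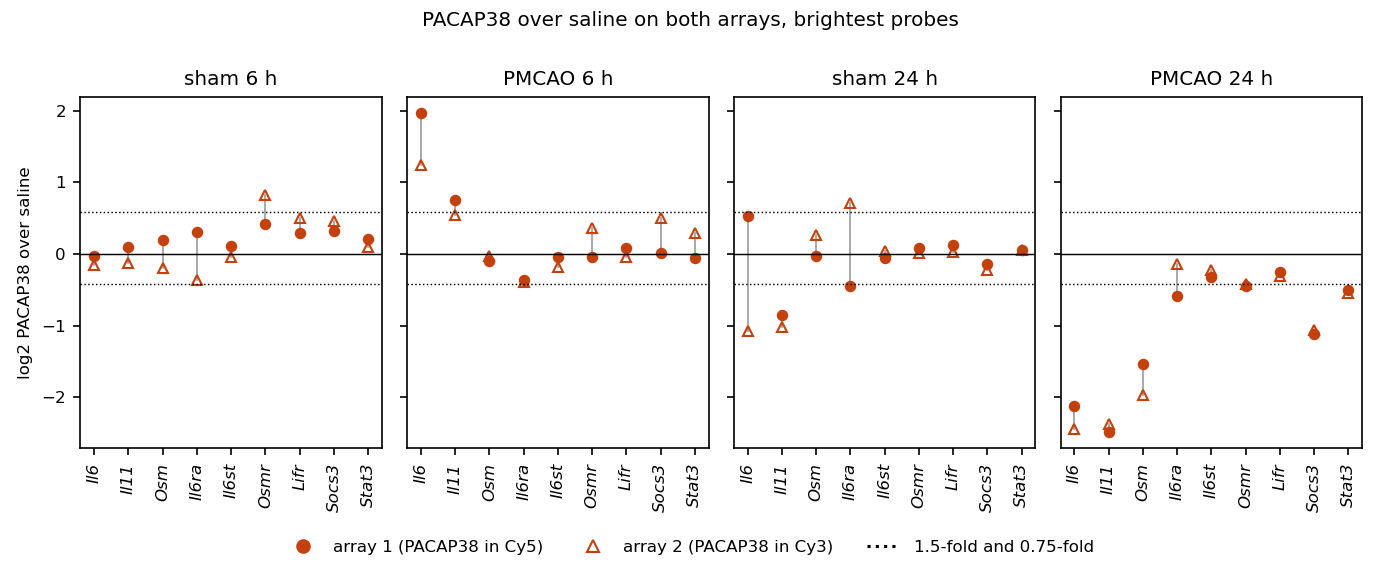
Log2 ratio of PACAP38 over saline for the brightest probe of 9 genes on array 1 (filled circles) and array 2 (open triangles) in the 4 comparisons, with dotted lines at 1.5-fold and 0.75-fold. In PMCAO at 24 h all 9 lie below 0 on both arrays, from -2.49 (Il11) to -0.14 (Il6ra). A dimmer probe, not shown, of each of Osmr, Il6ra, Lifr and Stat3 had opposite signs on the 2 arrays there. The share of all probes lower on both arrays was not counted.

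Lists of other genes of the pathway were read in the same way. The first holds 14 other cytokines and receptors of the gp130 family. *Clcf1*, a ligand of the CNTF receptor, was the 1 of 15 probes tested that rose with PMCAO at 24 h, with 13.8 and 8.25 in sham and 42.8 and 29.9 with PMCAO (log2 1.74 ± 0.22, adjusted p = 0.0214, and 0.726 with the array as a block). Of all probes 2.43% rose, and *Clcf1* was well above background in 2 of 4 sham channels at 24 h. With PACAP38 in PMCAO at 24 h, 4 of 16 probes were downregulated, beside 8.18% of all probes. These were probes of *Clcf1*, *Il31ra*, *Il27ra* and *Il23a*, and most were dim. Of the 4 PMCAO channels at 24 h, *Clcf1* was well above background in 4, *Il31ra* in 2 and *Il27ra* in 0. *Il23a* was not well above background in any pool. The second list holds 25 JAK kinases, STAT factors and regulators. *Stat4*, a STAT factor of lymphoid cells, was the 1 of 48 probes that rose at 24 h, with 20.9 and 23.7 in sham and 68.6 and 51.4 with PMCAO (log2 1.41 ± 0.17, adjusted p = 0.0187, and 1.0 with the block). This 1 of 48 is near the 2.43% of all probes, and *Stat4* was well above background in 2 of 4 sham channels at 24 h. With PACAP38 in PMCAO at 24 h, 5 of 52 probes were downregulated, a share near the 8.18% of all probes. The list medians were -0.11 and -0.07 on the log2 scale.

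The third list holds 30 genes known to respond to STAT3, several of which also respond to NF-kappaB or mark leukocytes. With PMCAO at 24 h, 13 of 39 probes rose and 0 fell, beside 2.43% and 1.21% of all probes, and the median log2 difference was 1.11. With the array as a block 5 of the 39 passed, and with array 1 alone at 6 h 1 of 47. The 4 genes with the largest rises were the chemokine *Ccl2* (129 and 76.3 in sham, 6807 and 2778 with PMCAO, 43.8-fold, adjusted p = 0.0114), the acute-phase gene *Saa3* (11.9 and 16.3, then 628 and 293, adjusted p = 0.0064), lipocalin *Lcn2* (17.9 and 36.6, then 710.4 and 347, 19.4-fold, adjusted p = 0.0151) and the protease inhibitor *Timp1* (56.1 and 44.1, then 1069 and 426, 13.6-fold, adjusted p = 0.0168). These 4 also passed with the array as a block, with adjusted p of 0.0233, 0.0053, 0.0246 and 0.0408, among the 5. *Saa3* was well above background in 1 of 4 sham channels and 4 of 4 PMCAO channels at 24 h.

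With PACAP38 in PMCAO at 24 h, 32 of 47 probes of this list were downregulated and 0 upregulated, with a median log2 ratio of -0.71, beside the 8.18% of all probes given above. *Ccl2* read -1.30, *Saa3* -1.11, *Lcn2* -1.04 and *Timp1* -1.34 in the mean of both arrays. In PMCAO at 6 h, 3 of 44 were upregulated and 2 downregulated, with a median of 0.17, beside 5.41% and 6.90% of all probes. In sham, 5 of 41 were upregulated and 0 downregulated at 6 h, beside 3.98% and 7.48% of all probes, and 2 of 47 were upregulated and 5 downregulated at 24 h, beside 1.75% and 3.87%.

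At 6 h with PMCAO, 6 of 15 probes were higher and 4 lower in the first list, 3 of 48 higher and 16 lower in the second, and 19 of 39 higher and 6 lower in the third, beside 17.6% and 27.5% of all probes. From array 1 alone 1 probe of the 3 lists was higher and 0 lower, and with the array as a block 0 and 0. The largest differences in the third list were those of *Ccl2* (log2 3.44, and 3.94 from array 1 alone), the haptoglobin gene *Hp* (2.82 and 2.54), the stress gene *Gadd45b* (2.77 and 2.14) and *Timp1* (2.64 and 2.08). The largest falls there moved toward 0 from array 1 alone, as for *Birc5*, which supports cell division (-1.72 and -0.20), *Ccnd1*, encoding cyclin D1 (-0.93 and -0.37), and *Hif1a*, a hypoxia factor (-0.89 and -0.57). *Reg3b* was not well above background with PMCAO at 6 h. In the second list *Socs7* (1.20 and 2.46), *Stat6* (0.69 and 0.46) and *Jak2* (0.50 and 0.21) were higher, and *Stat5b* (-1.78 and -2.03), *Ptpn2* (-1.71 and -0.43) and *Socs4* (-1.53 and -0.86) were lower. In the first list *Il31ra* (1.32 and 0.83), *Il27ra* (1.00 and 0.48) and *Ctf2* (0.96 and -0.02) were higher, and *Cntf* (-0.84 and -0.27), *Ebi3* (-0.73 and -0.32), *Cntfr* (-0.62 and -0.17) and *Ctf1* (-0.53 and 0.40) were lower. Several of these probes were dim at 6 h. In sham, *Il31ra*, *Ctf2* and *Socs7* were well above background in 2 of 4 channels and *Il27ra* in 1, and with PMCAO *Il27ra* was in 2 of 4 and *Stat5b* in 1.

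**Figure D4:**
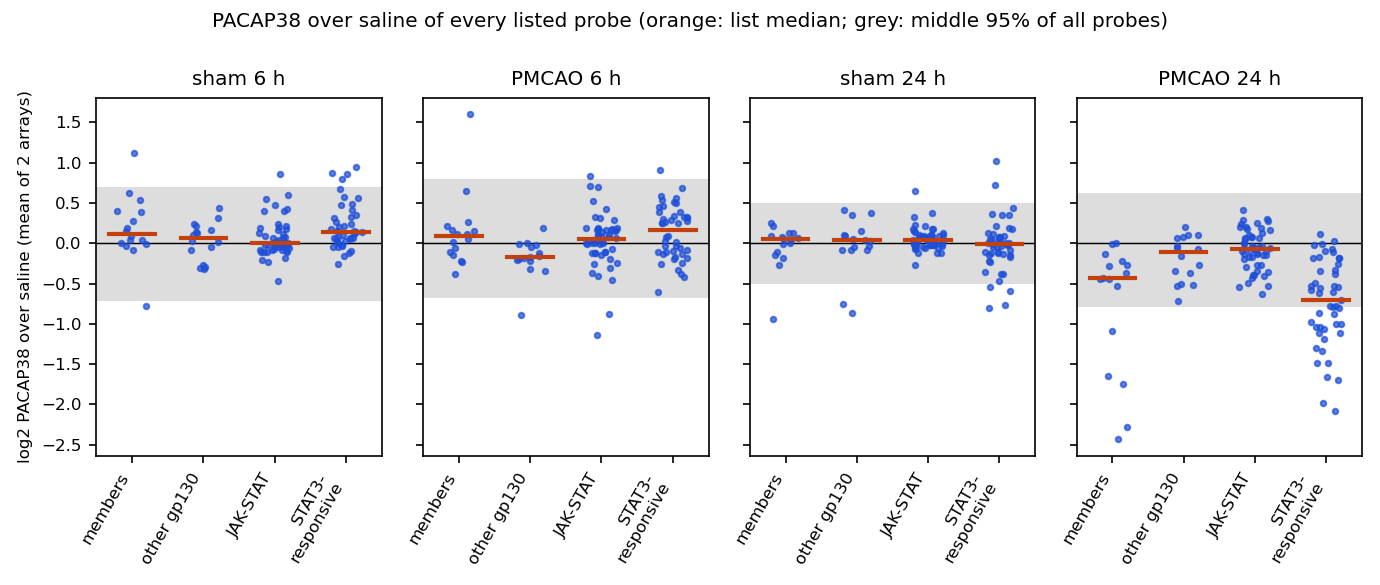
Log2 ratio of PACAP38 over saline, mean of both arrays, for every probe of the members and of 3 pathway lists in the 4 comparisons, with the list median in orange and the middle 95% of all probes in grey. In PMCAO at 24 h the median lay at -0.71 for the STAT3-responsive genes and at -0.44 for the members.

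The 5 genes whose levels over the 8 pools were most like *Il6*, by Pearson correlation of log2 scaled signals among 18312 probes, were *Fut7* (0.994), *Clec7a* (0.982), *Adam8* (0.982), *Pirb* (0.979) and *Slpi* (0.979), which are known from leukocytes among other cells. Those most like *Socs3* were *Plaur* (0.993), *Il1r2* (0.992), *Ccl3* (0.990), *Timp1* (0.990) and *Clec4d* (0.987). Those most like *Osmr* were *Bcl3* (0.993), *H2-Bl* (0.986), *Ch25h* (0.982), *4930449I24Rik* (0.976) and *Steap4* (0.975). The 8 pools share arrays, slides and depth, and the highest of so many correlations are high by selection. *Il6* itself was well above background in 1 of 4 sham channels at 6 h and 0 of 4 at 24 h. Its sham levels in these correlations are therefore mostly background.

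Markers of other cells and regions moved between the same pools. Each sum takes the brightest probe of every listed gene that was measured in all 8 pools, which left 7 of 8 neutrophil and 7 of 8 microglia and macrophage genes. The summed scaled signal of 7 neutrophil markers was 651 and 967 in the sham pools at 24 h and 41080 (saline) and 4977 (PACAP38) in the PMCAO pools. With PACAP38 in PMCAO at 24 h 5 of the 7 were below 0.75-fold, beside 8.18% of all probes, with a median log2 ratio of -1.84, and *S100a9*, the brightest, read 37210 and 4433, while *Camp* and *Elane* were not above background in any pool. At 6 h the sum was 2177 and 2562 in sham and 7625 (saline) and 11460 (PACAP38) with PMCAO. Most of the PMCAO sum was *S100a9*, with 6609 and 9835. With PACAP38 in PMCAO at 6 h, 2 of the 7 were above 1.5-fold, *S100a8* and *Camp*, and 1 was below 0.75-fold. The median log2 ratio was 0.21, and the shares of all probes were 5.41% and 6.90%. The sum of 4 olfactory bulb markers was 945 and 2333 in sham and 1139 and 2098 in PMCAO at 6 h, 691 and 902 in sham at 24 h, and 2265 and 551.5 in PMCAO at 24 h, for saline and PACAP38. All 4 were above 1.5-fold with PACAP38 in both comparisons at 6 h, beside 3.98% of all probes in sham and 5.41% in PMCAO. All 4 were below 0.75-fold in PMCAO at 24 h, beside 8.18%. The paper states that olfactory bulb and cerebellum were left out of the dissected hemispheres. *S100a5*, a gene of olfactory sensory neurons, ran from 825 with saline to 38.7 with PACAP38 there. With PACAP38 in PMCAO at 6 h, 2 of 5 cerebellum markers were above 1.5-fold, beside 5.41% of all probes, with a median log2 ratio of 0.42, and *Gabra6*, a gene of cerebellar granule cells, read 6.21 with saline and 327 with PACAP38. The neutrophil and olfactory bulb sums moved in the same direction as *Il6* and *Il11* in PMCAO at both times, and the part of these markers in the result was not tested. The sum of 7 microglia and macrophage markers lay between 6053 and 7936 in the 8 pools. Its members did not move together, since with PMCAO at 24 h *Cd68* rose (log2 1.07, adjusted p = 0.021) while *Aif1* (-0.62, adjusted p = 0.097) and *Tmem119* (-0.67, adjusted p = 0.139) had negative differences that did not pass the test. *P2ry12*, outside the sum, read 485 and 475 in sham and 128 and 177 with PMCAO at 24 h. Of the 7, 2 were below 0.75-fold with PACAP38 in PMCAO at 24 h. In the same comparison 0 of 6 astrocyte and 0 of 5 neuron markers passed the threshold, with medians of -0.05 and 0.07, while 2 of 5 oligodendrocyte and 2 of 4 endothelial markers were below 0.75-fold, beside the same 8.18%.

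**Figure D5:**
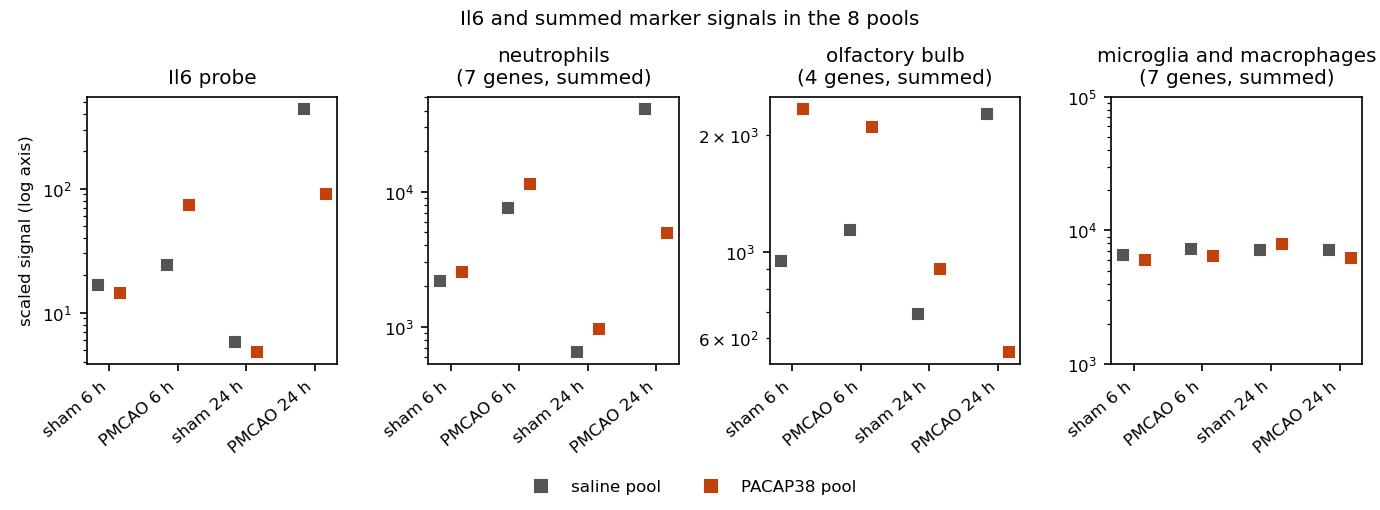
Scaled signal (arbitrary units, log axes of different range) of the Il6 probe and of summed markers of neutrophils, olfactory bulb and microglia and macrophages in the 8 pools, with saline in grey and PACAP38 in orange. In PMCAO at 24 h the saline pool was higher than the PACAP38 pool for Il6 (439.8 and 90.9), neutrophil markers (41080 and 4977) and olfactory bulb markers (2265 and 551.5).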

How the data were processed

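The authors read the arrays with Agilent Feature Extraction, in version 9.5.1.1 for the 6 h arrays and version 9.5.3.1 for the 24 h arrays per the file headers. The deposited log10 ratio sets Cy5 against Cy3 once background, detrending and dye effects were corrected, and the deposited intensity columns hold the processed signal, mean signal and local background. The deposited score marks spots as outliers or well above background. A deposited table of each array's ratio, written with a minus sign as a score where PACAP38 was in Cy3, served as an alternative. Second copies of 3 files with identical values were not used. Probe positions refer to mm7.

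Control spots and outlier spots were left out and the spots of a probe averaged. Ratios were turned to log2 PACAP38 over saline. Both arrays hold the same 2 pools and count as 1 replicate. For PMCAO over sham, each pool's log2 processed signal was scaled to the 75th percentile of its channel and averaged over both arrays, and the 8 pools were fitted with limma 3.58.1 (R 4.3.3) on time, surgery, their interaction and injection, with 3 residual degrees of freedom and Benjamini-Hochberg adjustment at 0.05 over 36121 probes. Lower limits came from normexp (offset 50), loess and Aquantile signals. The fit was checked on simulated data. P-values measure the spread between the pools, 2 per surgery and time, which differ in their injection. Alternatives were other background corrections and scalings, probes well above background, the brightest probe of a gene, marked spots kept, other thresholds, single arrays, pools left out and the array as a random block. Named genes were all member probes, the 4 largest rises and falls of each list among probes passing the test at each time, and for *Il6*, *Socs3* and *Osmr* the 5 genes most alike. Some genes that this rule names are not reported here. Genes without a matching name, such as *Ly6g*, were not analysed here. The members and lists were chosen with earlier results of these data known. RefSeq symbols were matched by accession for 22951 probes. Tables were made with Python 3.11.15, pandas and numpy.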

Additional observations from a re-analysis of the deposited data

Results flagged for a closer look

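*Il6* and *Il11* moved in opposite directions with PACAP38 in PMCAO at the 2 times, past the thresholds in the mean and in the same direction on both arrays each time. The mean log2 ratio of *Il6* was 1.60 at 6 h and -2.28 at 24 h, and that of *Il11* 0.65 at 6 h and -2.43 at 24 h. At 6 h the value of *Il11* on array 2 (0.54) was under 1.5-fold, and after normexp and loess both genes missed it (0.17 and 0.24). The difference between the times was not tested, since each comparison is 1 pair of pools, and time and slide cannot be told apart.

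The effect of PMCAO differed between the times by an interaction test for *Il6st* (24 h minus 6 h, log2 1.03, adjusted p = 0.0129) and for the brighter *Osmr* probe (log2 1.82, adjusted p = 0.0156). Without array 2 at 6 h these were 0.23 (adjusted p = 0.725) and 1.18 (adjusted p = 0.265).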

How the results depend on the processing

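Of the counts of PACAP38 over saline, those of PMCAO at 24 h were 0 up under all alternatives run and 5 to 11 down, the lowest with 1.5-fold either way. In sham at 6 h, normexp and loess gave 0 up and 0 down, both arrays past the threshold 1 and 0, probes above background only 1 and 0, and genes by their brightest probe 1 and 0, and in PMCAO at 6 h normexp and loess gave 0 up and both arrays past the threshold 1. Without replicate 1 or without replicate 2 (1 array alone), the range was 1 to 5 up and 0 to 2 down in sham and 1 to 2 down in PMCAO at 6 h, and 0 to 2 up and 2 to 4 down in sham at 24 h.

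For PMCAO over sham, leaving out 1 pool or 1 array per pair gave a range of 0 to 9 member probes higher and 0 to 2 lower at 6 h, 0 to 5 higher at 24 h and 0 to 6 called in the interaction, and 1 to 29 listed pathway probes higher and 0 to 35 lower at 6 h, and 2 to 24 higher and 0 to 1 lower at 24 h. The alternatives chosen after seeing the data that use array 1 alone at 6 h or the array as a random block gave 0 member probes higher or lower at 6 h, 0 higher at 24 h and 0 in the interaction. Listed pathway probes were 1 higher and 0 lower at 6 h and 1 higher at 24 h with array 1 alone, and 0, 0 and 5 with the block. Quantile normalization gave 2 member probes higher at 24 h and 1 in the interaction, and the interaction had 4 with median scaling, with probes above background only and with pools paired by time and injection. Counted by brightest probe, 4 members were higher at 6 h, and 17 listed genes lower at 6 h and 9 higher at 24 h. Keeping marked spots, also chosen after seeing the data, gave 46 listed probes higher and 17 lower at 6 h. Probes above background only gave 24 listed probes higher and 1 lower at 24 h, and normexp, loess and Aquantile gave 3 lower. The causes of these shifts were not tested. Single log2 differences of PMCAO over sham that turned in sign, none of which had passed the test, were those at 6 h of *Il11* (-0.38 without the PMCAO PACAP38 pool, a range of -0.38 to 1.39 over the pools and arrays left out) and *Osmr* (-0.043 with median scaling, and a range of -0.52 to 0.76, with -0.52 without replicate 1 and -0.23 without the sham saline pool), and at 24 h of *Il6st* (-0.051 without the PMCAO saline pool, a range of -0.051 to 0.18).

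Over all 36121 probes, 6346 were higher and 9951 lower at 6 h, 879 and 436 at 24 h, and 10285 passed the interaction. At 6 h, 8096 were higher and 8860 lower after normexp, loess and Aquantile, 8066 and 8049 after quantile normalization, 4748 and 12441 with median scaling, and 13323 and 7722 with marked spots kept. The median log2 difference of all probes at 6 h was -0.10, against -0.26 with median scaling, 0.0026 with quantile normalization and 0.23 with marked spots kept. At 24 h, 1802 and 2624 were called after normexp, loess and Aquantile, and 1226 and 843 of the 23364 probes above background. Array 1 alone at 6 h left 281 calls at 6 h, 67 at 24 h and 64 in the interaction, the block 60, 55 and 0, and array 1 of every pair (without replicate 2) 342, 361 and 126. The injection term had 0 calls in all of these, but 4239 without replicate 1, where injection and dye cannot be told apart.

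No paired analysis was possible because the replicate number marks the dye orientation of the same 2 pools, whose arrays are averaged, and pairing the pools by time and injection was run in its place. Signal over background limits *Il6*, *Osm* and the second *Osmr* probe, which were below background in sham at 24 h.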

Other observations

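Marker lists of other tissues and cells held values outside the comparisons above. With PACAP38 in PMCAO at 24 h, 0 of 4 T lymphocyte, 0 of 2 erythrocyte, 0 of 4 choroid plexus and 0 of 5 cerebellum markers were past either threshold, with median log2 ratios of 0.38, -0.32, -0.18 and -0.12. Of 4 pituitary markers, 2 were below 0.75-fold and 1 above 1.5-fold, with a median of -1.05. The shares of all probes were 8.18% and 2.99%. Some of these markers were dim. Of 16 channels, *Gh*, 1 of the 2 below 0.75-fold, was well above background in 2. Of the T lymphocyte markers, *Cd3d* was in 2, *Cd8a* in 3 and *Cd4* in 5.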
